A study of Mus musculus with 4 samples.

Results

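Nkx genes encode homeodomain transcription factors, and 9 members of the family, some known from the gut and others from other organs, were followed through mouse colon. They are Nkx2-2, Nkx2-3, Nkx3-2, Nkx6-3, Nkx2-1, Nkx6-1, Nkx2-5, Nkx2-6 and Nkx6-2. They were taken by gene symbol, without regard to level, and make up 9 of the 23074 symbols measured. RNA came from the colon next to the caecum in mice 6 weeks old and gave 4 RNA-seq libraries. The 2 mutant libraries have the genotype Nkx2.2flox/flox; Villin-Cre/+, in which both alleles of Nkx2-2 are floxed and the Villin promoter drives Cre in intestinal epithelium. The 2 control libraries have the genotype Nkx2.2flox/+, with 1 floxed allele and no Cre in the label, so all 4 libraries carry a floxed allele and no library is plain wild type. The strain is given as mixed. Sex, litter and the exons that are floxed are not in the labels. Nor do they say that each library is its own animal, so the spread behind a p-value is that of libraries and may be technical.

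A homeodomain binds DNA with its recognition helix, and the NK-2 class carries a tyrosine in that helix that is typical of the class. Nkx2-2 acts in the enteroendocrine lineage, the hormone-producing cells of the gut epithelium, and recruits Groucho-type corepressors. Nkx2-3 and Nkx3-2 belong to the mesenchyme beneath the epithelium, where Nkx2-3 is needed for the homing receptor MAdCAM-1 on gut vessels and for spleen formation. Nkx6-3 is known from the endocrine cells of the stomach, and the remaining members are better known from lung and thyroid (Nkx2-1), pancreatic beta cells (Nkx6-1), heart (Nkx2-5 and Nkx2-6) and the central nervous system (Nkx6-2).

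The stretch of homeobox that encodes the recognition helix is shown for Nkx2-3, Nkx3-2 and Nkx6-3, which were found in every library, because it is the part of these transcripts that carries the class difference. Each run holds codons 40 to 59 of the 60 codons, read 5′ to 3′ on the coding strand from the mm9 genome, with codon 54 in capitals. The Nkx2-3 run lies at chr19:43688996-43689055 on the plus strand and that of Nkx3-2 at chr5:42153091-42153150 on the minus strand. The Nkx6-3 run lies within chr8:24266822-24268092 on the plus strand and is joined across an intron.
Nkx2-3: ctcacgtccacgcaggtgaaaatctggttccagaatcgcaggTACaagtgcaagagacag
Nkx3-2: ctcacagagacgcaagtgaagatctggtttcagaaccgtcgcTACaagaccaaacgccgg
Nkx6-3: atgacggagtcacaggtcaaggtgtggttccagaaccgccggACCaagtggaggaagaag

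The marked codon is TAC, for tyrosine, in 6 of the 9 members and ACC, for threonine, in the 3 Nkx6 genes. Over the whole homeobox of 180 bases, identity to Nkx2-2 was 80.0% for Nkx2-5, 79.4% for Nkx2-1, 75.0% for Nkx2-3, 74.4% for Nkx2-6 and 67.2% for Nkx3-2. It was 53.3% for Nkx6-3 and Nkx6-2 and 52.8% for Nkx6-1. The homeobox lies in a single exon in the 6 members with TAC and is split across a pair of exons in each Nkx6 gene. Among the 36 pairs of members, the longest run of identical bases in the transcript sequences was 36, between Nkx2-2 and Nkx2-3 inside the homeobox. It lies at chr2:147010074-147010109 on the minus strand and chr19:43688941-43688976 on the plus strand, and is shown because reads within it could come from either gene.
Nkx2-2 and Nkx2-3, shared: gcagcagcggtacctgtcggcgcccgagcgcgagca
The read length is not given in the sources used here.

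Depth differed between the libraries. The width of the deposited FPKM intervals implies 6990000 fragments in mutant 1 and 15500000 in mutant 2, against 15000000 and 17000000 in controls 1 and 2. FPKM divides the fragments of a gene by its transcript length and by the size of the library. Mutant 1 also stood apart in genes that were otherwise silent. Of the genes at 0 in the other 3 libraries, 45.3% were above 0 in mutant 1 and 3.19% in mutant 2, against 3.83% in control 1 and 3.76% in control 2. Those genes had a median of 0.194 FPKM in mutant 1. Olfactory receptor genes, which serve smell, were above 0 for 493 of 1113 genes in mutant 1 and 29 in mutant 2, against 35 and 33 in the controls. The tissue label was checked against markers, and the 13 epithelial genes summed to 26587 and 26655 FPKM in mutants 1 and 2, against 24359 and 33206 FPKM in controls 1 and 2, with none at 0. Most of each sum was Car1, named after its values were seen. Car1 stood at 17319.6 and 16277.6 FPKM in mutants 1 and 2, against 15111.6 and 22062.5 FPKM in controls 1 and 2.

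**Figure D1:**
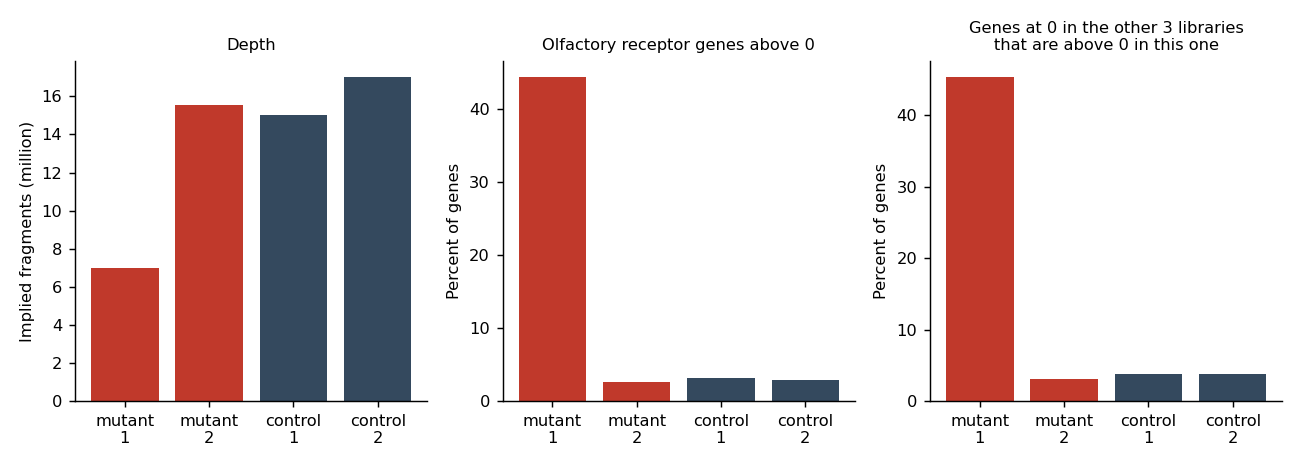
Bars give, for each library (mutants left, controls right), the fragments implied by the interval widths, the percentage of olfactory receptor genes above 0, and the percentage of genes at 0 in the other 3 libraries that are above 0 in the one shown. Mutant 1 has the lowest depth, 6990000 fragments, and the highest share of otherwise silent genes above 0, 45.3%.

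Nkx2-3 was the most abundant member, followed by Nkx3-2, Nkx2-2 and Nkx6-3. Mean levels over the 4 libraries were 7.38 FPKM for Nkx2-3, 1.25 for Nkx3-2, 0.452 for Nkx2-2 and 0.292 for Nkx6-3, and FPKM are corrected for transcript length. The lowest Nkx2-3 value lay above the highest Nkx3-2 value, and the lowest Nkx3-2 value above the highest Nkx2-2 value. The Nkx2-2 and Nkx6-3 ranges overlapped, so their order is within the spread between libraries. Nkx2-3 alone made up 71.6% and 84.2% of the summed FPKM of the members in mutants 1 and 2, against 73.0% and 80.1% in controls 1 and 2. Nkx2-3 stood above 61.3% and 67.7% of all symbols in mutants 1 and 2, against 65.6% and 66.3% in controls 1 and 2. Nkx2-1, Nkx6-1 and Nkx2-5 were above 0 in mutant 1 alone, and Nkx2-6 and Nkx6-2 were listed at 0 in every library.

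**Figure D2:**
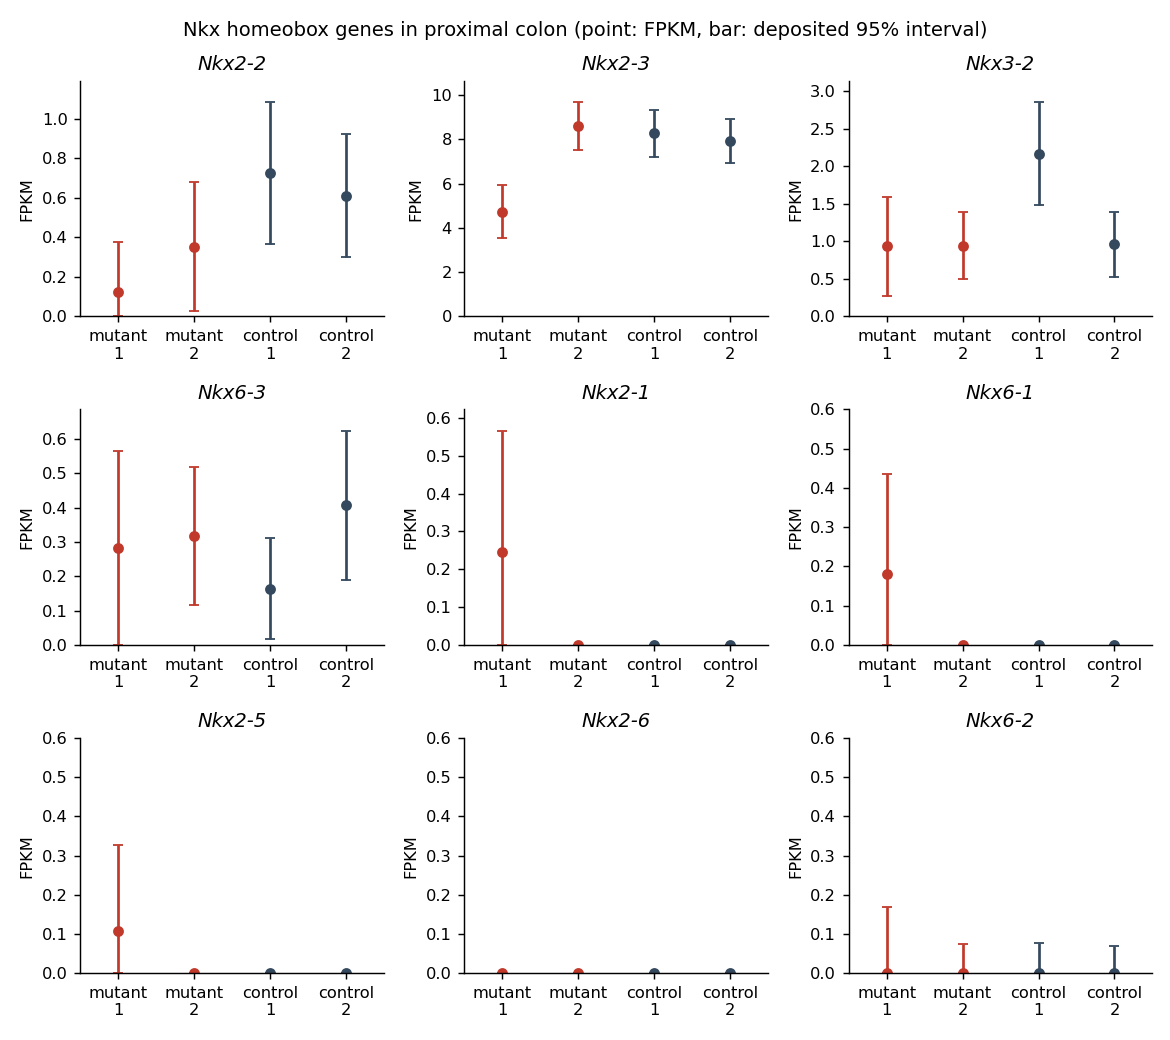
Each panel shows 1 member, with its FPKM in mutants 1 and 2 and controls 1 and 2 as points and the deposited 95% interval as bars, on a vertical axis of its own. Nkx2-2 is lower in both mutants than in both controls, Nkx2-3 is low in mutant 1 alone, and Nkx3-2 is high in control 1 alone.

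Mutant colon was compared with control colon for every member with a value above 0, in a limma fit of log2(FPKM + 0.5) over 14002 genes. Only Nkx2-3 and Nkx3-2 reached the minimum mean of 0.5 FPKM, and 5 members below it were added to the fit. Of the 7 members tested, 0 passed an adjusted p of 0.05, against 9 of the 14002 genes (0.0643%), and 0 had an unadjusted p under 0.05 in limma, against 4.83% of all genes. In the authors' deposited table, made with DESeq, the adjusted p was 1 for each of the 7. Nkx2-2 and Nkx3-2 were lower in both mutants than in both controls, and no member was higher in both. As a background, 35.1% of all tested genes lay lower in both mutants and 3.38% higher, and 82.5% had a change below 0. Across the genes tested, the median log2 change was −0.17 for FPKM as deposited, and median ratio rescaling brought it to 0.01. Changes relative to −0.17 are therefore given beside those as deposited.

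Nkx2-2, the gene targeted in the mutants, lies at chr2:147003282-147012138 on the minus strand of mm9. It stood at 0.125 FPKM in mutant 1 and 0.351 FPKM in mutant 2, against 0.724 FPKM in control 1 and 0.609 FPKM in control 2. The groups did not overlap, and the mean of the mutants (0.238 ± 0.160, SD, n = 2) was 35.7% of that of the controls (0.667 ± 0.0808, SD, n = 2). The deposited 95% intervals run from 0 to 0.375 in mutant 1 and 0.0258 to 0.677 in mutant 2, against 0.366 to 1.08 in control 1 and 0.299 to 0.920 in control 2. The interval of mutant 2 therefore overlaps both control intervals, and that of mutant 1 overlaps them at its upper end. The log2 change was −0.68 (SE 0.32, 95% interval −1.40 to 0.05), or −0.51 relative to the median of all genes. It did not pass (limma adjusted p = 0.825, unadjusted p = 0.0636).

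Few fragments stand behind these Nkx2-2 values. Taken from FPKM and transcript length, they come to 1 and 6.2 fragments in mutants 1 and 2, against 20 and 19 in controls 1 and 2. Taken from the interval widths, they come to 1 and 4.7 in mutants 1 and 2, against 16.4 and 15.4 in controls 1 and 2. The Nkx2-2 value of mutant 1 lies under the median of 0.194 FPKM that otherwise silent genes have in that library. The part of that low signal in the Nkx2-2 value was not tested. In the authors' deposited table the mean normalized count of Nkx2-2 was 5.58 in mutants and 10.4 in controls, a ratio of 0.539. Tissue RNA is a mixture, and fewer Nkx2-2 cells cannot be told apart from less Nkx2-2 RNA in each cell, here or for any other member.

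The files split Nkx2-2 into a pair of RefSeq isoforms that share the homeobox and differ after it. Exon 1 (chr2:147011496-147012138, 643 bases) and the first 312 bases of exon 2 (chr2:147009982-147010293) are in both, and the homeobox (chr2:147009992-147010171) lies wholly in that shared part of exon 2. NM_010919 reads on through 1094 more bases of exon 2 and has 273 codons. NM_001077632 leaves exon 2 a few codons after the homeobox, joins exon 3 (chr2:147003282-147003680, 399 bases) and has 248 codons. The point where they part is shown because the mutant and control estimates fall on different sides of it. The shared bases are in lower case and the bases of a single isoform in capitals, read on the minus strand of mm9, from chr2:147009982-147010011 joined to chr2:147003651-147003680 for NM_001077632 and from chr2:147009952-147010011 for NM_010919.
NM_001077632: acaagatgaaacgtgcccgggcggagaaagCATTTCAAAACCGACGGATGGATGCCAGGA
NM_010919: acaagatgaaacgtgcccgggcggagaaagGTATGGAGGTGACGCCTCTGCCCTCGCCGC

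The estimate for NM_010919 was 0 FPKM in both mutants, against 0.724 and 0.609 FPKM in controls 1 and 2. That for NM_001077632 was 0.125 and 0.351 FPKM in mutants 1 and 2, against 0 FPKM in both controls. Thus each library had its whole Nkx2-2 estimate on a single isoform, and the choice differed between the groups. Deposited upper bounds of the isoform listed at 0 were 0 and 0.0700 FPKM for NM_010919 in mutants 1 and 2, against 0.116 and 0.103 FPKM for NM_001077632 in controls 1 and 2. The bound of 0 in mutant 1 sets no real limit, since 1 fragment on NM_010919 would be 0.0778 FPKM in that library. NM_001077632 is 1354 bases long and NM_010919 is 2049 bases long, so mutant FPKM were divided by a shorter length than control FPKM. A fragment was therefore worth more FPKM in a mutant than the same fragment would have been on NM_010919. No test was run on isoforms, and where the fragments lie within the gene is not known from these files.

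A gene on the opposite strand, Nkx2-2as, overlaps this locus. Its exon 1 (chr2:147009819-147010096, 278 bases) lies inside exon 2 of Nkx2-2 and covers 105 bases of the homeobox. Nkx2-2as was at 0.173 FPKM in mutant 1, from 5 fragments, and at 0 FPKM in mutant 2 and both controls. The sources used here do not say whether the counting used strand, and without strand the reads of Nkx2-2 and Nkx2-2as cannot be told apart in the overlap.

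**Figure D3:**
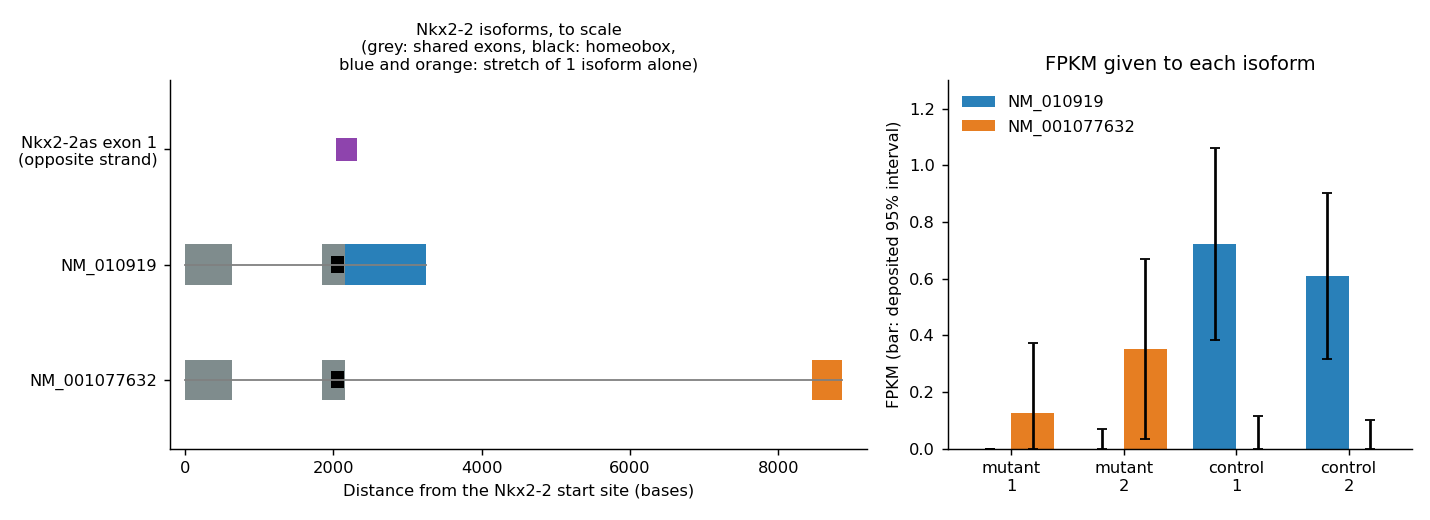
The left side draws the exons of both Nkx2-2 isoforms and exon 1 of Nkx2-2as against distance in bases from the Nkx2-2 start, and the right side gives the FPKM of each isoform in mutants 1 and 2 and controls 1 and 2, with deposited 95% intervals as bars. All of the mutant estimate falls on NM_001077632, at 0.125 and 0.351 FPKM, and all of the control estimate on NM_010919, at 0.724 and 0.609 FPKM.

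Nkx2-3, the mesenchymal and vascular member, lies at chr19:43686815-43690382 on the plus strand and has 1 isoform. It stood at 4.73 FPKM in mutant 1 and 8.59 FPKM in mutant 2, against 8.27 FPKM in control 1 and 7.95 FPKM in control 2. The groups overlapped, since mutant 1 was the lowest of the 4 libraries and mutant 2 the highest. The interval of mutant 1, 3.54 to 5.93 FPKM, did not reach that of mutant 2, 7.51 to 9.67 FPKM, nor those of control 1, 7.19 to 9.34 FPKM, and control 2, 6.95 to 8.94 FPKM. Behind these values stood 62.9 and 253.3 fragments in mutants 1 and 2, against 236.5 and 256.6 in controls 1 and 2.

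The mean of Nkx2-3 was 6.66 ± 2.73 FPKM in mutants and 8.11 ± 0.228 FPKM in controls (SD, n = 2 each). The log2 change was −0.32 (SE 0.28, 95% interval −0.96 to 0.32), or −0.15 relative to the median of all genes, and did not pass (limma adjusted p = 0.825, unadjusted p = 0.283). A single library set its direction. Without mutant 1 the log2 change was 0.079, and without mutant 2 it was −0.72. In the authors' deposited table the mean normalized count was 172.3 in mutants and 192.1 in controls, a ratio of 0.897.

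Marker lists of the gut wall also had their lowest medians in mutant 1. Relative to each gene's mean over the 4 libraries, on the log2(FPKM + 0.5) scale, Nkx2-3 was at −0.56 in mutant 1 and 0.24 in mutant 2, against 0.19 in control 1 and 0.13 in control 2. The median of the 11 smooth muscle genes was −0.29 in mutant 1 and 0.03 in mutant 2, against 0.25 in control 1 and 0.02 in control 2. That of the 9 endothelial genes was −0.21 in mutant 1 and −0.08 in mutant 2, against 0.15 in both controls. The 8 fibroblast genes had a median of −0.17 in mutant 1, the 10 enteric neuron genes −0.41 and the 4 enteric glia genes −0.42. Low values in mutant 1 were not confined to gut wall lists. There the 8 corepressor genes had a median of −0.25. The 13 epithelial genes had −0.11 in mutant 1 and 0.03 in mutant 2, against −0.13 in control 1 and 0.17 in control 2, so control 1 was their lowest library. Over all tested genes the median log2 change was −0.28 without mutant 2 and −0.07 without mutant 1. A list median and a single gene vary differently, so their sizes are not compared. Summed smooth muscle FPKM were 1457 and 1846 in mutants 1 and 2, against 1987 and 1779 in controls 1 and 2, and fibroblast genes gave 465.3 and 539.7, against 651.5 and 562.6. No smooth muscle, endothelial or fibroblast marker was at 0 in any library. The part of the amount of gut wall in the Nkx2-3 values was not tested.

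Nkx3-2, also known as Bapx1, is a mesenchymal member best known from the stomach and the skeleton, and lies at chr5:42152722-42155459 on the minus strand. It stood at 0.932 FPKM in mutant 1 and 0.944 FPKM in mutant 2, against 2.16 FPKM in control 1 and 0.959 FPKM in control 2. Both mutants lay below both controls, but control 2 was within 0.0148 FPKM of mutant 2, and control 1 was 2.26 times control 2. The intervals of both mutants, 0.273 to 1.59 and 0.499 to 1.39 FPKM, lay around the value of control 2. Fragments numbered 8 and 17.9 in mutants 1 and 2, against 39.9 and 20 in controls 1 and 2.

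The log2 change of Nkx3-2 was −0.46 (SE 0.33, 95% interval −1.22 to 0.31), or −0.29 relative to the median of all genes, and did not pass (limma adjusted p = 0.825, unadjusted p = 0.208). The mean was 0.938 ± 0.00845 FPKM in mutants and 1.56 ± 0.852 FPKM in controls (SD, n = 2 each). Nearly all of the difference came from control 1, since the log2 change was −0.02 without it and −0.89 without control 2. In the authors' deposited table the mean normalized count was 20.9 in mutants and 27.5 in controls, a ratio of 0.758.

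Control 1 also stood apart in lymphoid genes. The 13 genes of the gut homing and lymphoid follicle list summed to 42.5 FPKM in each mutant, against 237.9 FPKM in control 1 and 44.2 FPKM in control 2. Of this list none was at 0 in mutant 1 and 2 were at 0 in mutant 2, against none in control 1 and 2 in control 2. Madcam1, which encodes the homing receptor that depends on Nkx2-3 in gut vessels, stood at 1.65 FPKM in both mutants, against 5.32 FPKM in control 1 and 1.56 FPKM in control 2. Its log2 change was −0.69 (SE 0.44) and did not pass (limma adjusted p = 0.825). Nkx2-3 stood at 4.73 and 8.59 FPKM in mutants 1 and 2, against 8.27 and 7.95 FPKM in controls 1 and 2. A relation between Madcam1 and Nkx2-3 in these libraries was not tested. The part of lymphoid tissue in the Nkx3-2 value of control 1 was not tested.

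**Figure D4:**
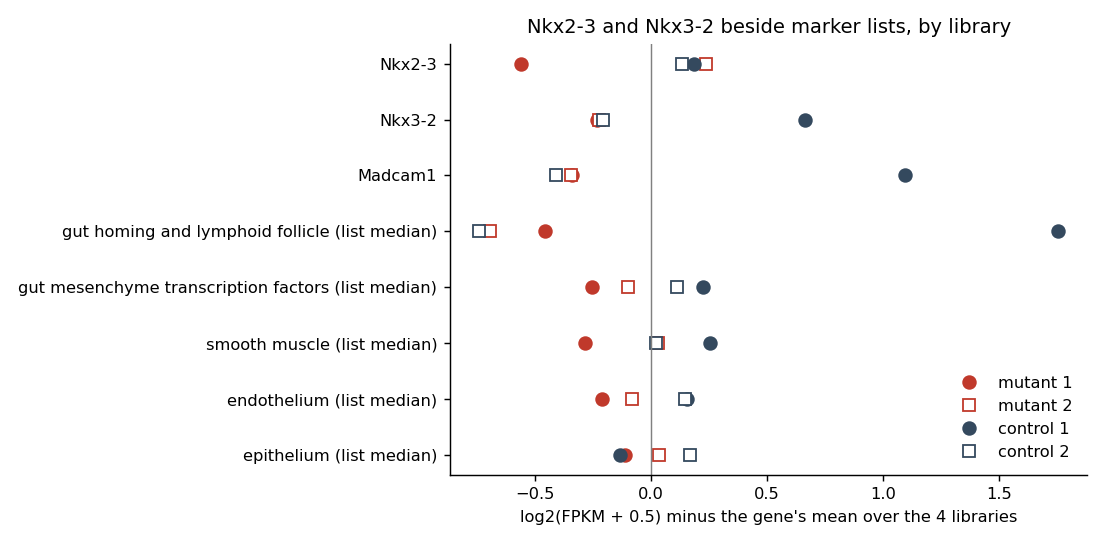
Rows give Nkx2-3, Nkx3-2, Madcam1 and the median of 5 marker or transcription factor lists, as log2(FPKM + 0.5) minus each gene's mean over the 4 libraries on the horizontal axis, with mutants 1 and 2 in red and controls 1 and 2 in blue. Nkx2-3 is at −0.56 in mutant 1, where the smooth muscle median is −0.29, and Nkx3-2 is at 0.66 in control 1, where the lymphoid median is 1.75.

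Nkx6-3, the member known from stomach endocrine cells, lies at chr8:24263743-24269420 on the plus strand and was low in every library. It stood at 0.282 FPKM in mutant 1 and 0.317 FPKM in mutant 2, against 0.164 FPKM in control 1 and 0.406 FPKM in control 2, from 4 and 10 fragments in mutants and 5 and 14 in controls. Both mutants lay between the controls. The means were 0.300 ± 0.0250 FPKM in mutants and 0.285 ± 0.172 FPKM in controls (SD, n = 2 each). The log2 change was 0.04 (SE 0.32, 95% interval −0.70 to 0.79) and did not pass (limma adjusted p = 0.969), and it was −0.18 without control 1. A list of 11 stomach genes summed to 1.07 and 0.0199 FPKM in mutants 1 and 2, against 0.168 and 0.282 FPKM in controls 1 and 2, with 5 and 10 genes at 0 in mutants 1 and 2 and 9 and 8 in controls 1 and 2. None of the 11 reached the minimum for testing, and mutant 1, with the highest sum, is the library with signal in 45.3% of otherwise silent genes. The part of stomach RNA in the Nkx6-3 values was not tested.

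The members of lung, thyroid, pancreas and heart were seen in mutant 1 or in no library. Nkx2-1 (chr12:57632924-57637895, minus strand) stood at 0.245 FPKM in mutant 1, Nkx6-1 (chr5:102088216-102093730, minus strand) at 0.180 FPKM from 2 fragments, and Nkx2-5 (chr17:26975610-26978510, minus strand) at 0.109 FPKM from 1 fragment. Each was listed at 0 in mutant 2 and in both controls. The deposited intervals in mutant 1 all begin at 0 and end at 0.566 for Nkx2-1, 0.435 for Nkx6-1 and 0.326 FPKM for Nkx2-5. These values lie around the median of 0.194 FPKM of otherwise silent genes in mutant 1.

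The log2 changes were 0.29 for Nkx2-1 (95% interval −0.54 to 1.12), 0.22 for Nkx6-1 (−0.58 to 1.03) and 0.14 for Nkx2-5 (−0.65 to 0.93). None passed (limma adjusted p = 0.836, 0.855 and 0.903 in that order). They depend on the pseudocount, since 3 of 4 values are 0, and rest wholly on mutant 1. In the authors' deposited table the mean normalized count in mutants was 3.08 for Nkx2-1, 3.08 for Nkx6-1 and 1.03 for Nkx2-5, and 0 in controls for each.

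Nkx2-6 (chr14:69789859-69793597, plus strand) and Nkx6-2 (chr7:146765275-146768696, minus strand) had no fragment in any library. A count of 0 allows up to 3 fragments, which for Nkx2-6 is 0.454 and 0.205 FPKM in mutants 1 and 2, against 0.211 and 0.187 FPKM in controls 1 and 2. For Nkx6-2, on the shorter of its isoforms (1306 bases), it is 0.392 and 0.177 FPKM in mutants 1 and 2, against 0.182 and 0.161 FPKM in controls 1 and 2. In every library these limits lie below the Nkx2-2 levels of the controls. Fragment numbers, floors and deposited intervals cover counting error only.

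Other Nkx genes gave a similar picture, with most values in mutant 1. Nkx1-2 stood at 0.0844 FPKM and Nkx2-9 at 0.273 FPKM in mutant 1, and both were at 0 in mutant 2. Nkx2-9 was also at 0.127 FPKM in control 1 and at 0 in control 2, and Nkx1-2 was at 0 in both controls. Nkx2-4 was listed at 0 in all 4 libraries. Nkx1-1 was not analysed here.

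**Figure D5:**
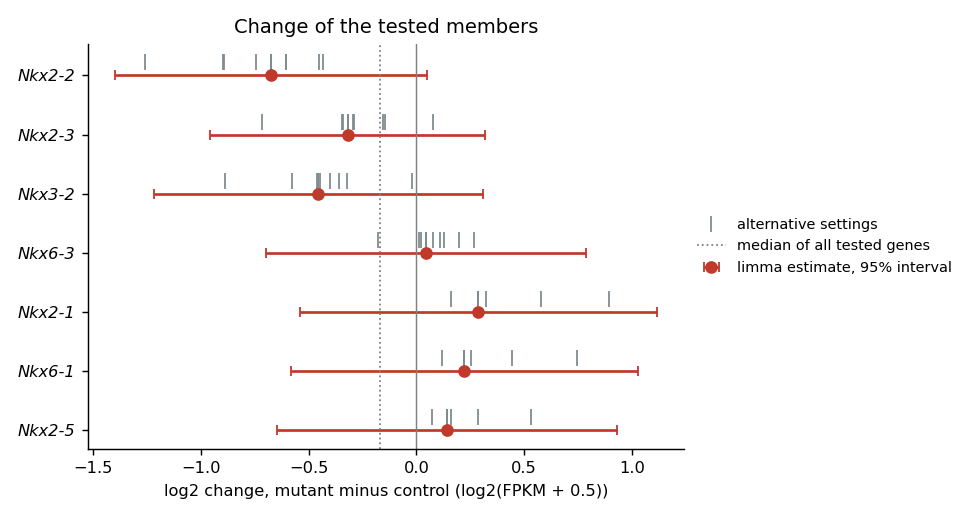
Points give the limma log2 change of log2(FPKM + 0.5), mutant minus control, for the 7 members tested, with 95% intervals as bars, grey ticks for the alternative settings, a dotted line at the median of all tested genes (−0.17) and a full line at 0. Every interval includes 0, and the ticks of Nkx2-3 and Nkx6-3 lie on both sides of it.

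Genes that work with Nkx2-2 were compared in the same fit. Nkx2-2 represses its targets with corepressors of the Groucho family, encoded by Tle genes, and with Hdac1 and Dnmt3a. The list of 8 also holds Aes, a shorter member of that family, whose part in repression by Nkx2-2 was not tested. Of the 8 corepressor genes tested 0 passed in either direction by limma, against 0.0357% of all genes higher and 0.0286% lower. By limma 0 had an unadjusted p under 0.05, against 4.83% of all genes. All 8 had a change below 0, against 82.5% of all genes, with a median log2 change of −0.28, against −0.17 for all genes. Of the 8, 3 were lower in both mutants than in both controls, near the 35.1% of all genes. Aes, which encodes a short Groucho-type protein, was the most abundant, at 420.4 and 471.7 FPKM in mutants 1 and 2, against 490.4 and 533.7 FPKM in controls 1 and 2. Hdac1, a histone deacetylase, stood at 34.8 and 64.5 FPKM in mutants 1 and 2, against 53.4 and 61.0 FPKM in controls 1 and 2, and mutant 1 was again the lowest library. Tle4 had 12.6 and 16.4 FPKM in mutants 1 and 2, against 18.1 and 16.5 FPKM in controls 1 and 2. Transcripts of each of the 8 genes exceeded those of Nkx2-2 in every library on the FPKM scale. Tissue RNA is a mixture, so this order does not give their ratio within the cells that express Nkx2-2.

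Of the 18 endocrine transcription factor genes, which share the lineage of Nkx2-2, 12 were tested with limma and 0 passed. By limma 1 had an unadjusted p under 0.05, against 4.83% of all genes. There were 7 with a change below 0 and 5 above, against 82.5% of all genes below 0. The median was −0.15, against −0.17 for all genes. In both mutants 4 of the 12 were lower and 1 higher, against 35.1% and 3.38% of all genes. Foxa1, a forkhead factor of the whole epithelium, stood at 24.0 and 32.8 FPKM in mutants 1 and 2, against 31.8 and 36.9 FPKM in controls 1 and 2. Sox4 had 6.04 and 7.18 FPKM in mutants 1 and 2, against 8.97 and 7.93 FPKM in controls 1 and 2, and its groups did not overlap. Neurog3, the factor that starts the endocrine lineage, overlapped between groups at 2.36 and 1.79 FPKM in mutants 1 and 2, against 1.05 and 2.12 FPKM in controls 1 and 2. Neurog3 was named after its values were seen. Over all genes 0.0643% passed in either direction, so a count of 0 among 12 genes says nothing particular about these regulators. Of 11 enteroendocrine marker genes 4 passed lower and 1 higher on the FPKM as deposited. The number of lower calls by limma over all genes depended on the setting. It was 0 after median ratio rescaling or with no filter on low values. In those fits 465 and 671 genes, in that order, had an unadjusted p under 0.05 in either direction. With a pseudocount of 0.1 or 1, or a filter at a mean of 1 FPKM, 4 genes passed lower. With no variance trend 2 did, with rows of any status 5, and with the replicate block 108.

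Of the 18 gut mesenchyme transcription factor genes, the company of Nkx2-3 and Nkx3-2, 15 were tested with limma and 0 passed. By limma 3 had an unadjusted p under 0.05, against 4.83% of all genes. There were 13 with a change below 0, against 82.5% of all genes, and the median was −0.34, against −0.17 for all genes. In both mutants 11 of the 15 were lower and 1 higher, against 35.1% and 3.38% of all genes. Tcf21, a factor of gut fibroblasts, had 14.4 and 24.3 FPKM in mutants 1 and 2, against 30.2 and 20.9 FPKM in controls 1 and 2, with mutant 1 lowest and control 1 highest. Foxf1a, a target of hedgehog signals from the epithelium, had 7.21 and 9.82 FPKM in mutants 1 and 2, against 11.5 and 12.3 FPKM in controls 1 and 2, and its groups did not overlap. Tbx3 had 9.10 and 7.51 FPKM in mutants 1 and 2, against 9.50 and 9.67 FPKM in controls 1 and 2. The list median relative to each gene's mean was −0.25 in mutant 1 and −0.10 in mutant 2, against 0.22 in control 1 and 0.11 in control 2. Nkx2-3 departed from that order in mutant 2, where it was at 0.24.

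Profiles over the 4 libraries were compared with those of 14001 other rows by the root mean square distance of log2(FPKM + 0.5) after centring each gene on its mean. With 4 libraries many genes lie close to any profile, so the nearest ones are given as a description. Nearest to Nkx2-2 were Grcc10 (distance 0.0141), Lysmd2 (0.0292) and Ptpro (0.0302), which ran in the same order of libraries, lowest in mutant 1 and highest in control 1. Nearest to Nkx2-3 were Pcdhgc3 (0.0162), Wdr31 (0.0215) and Ly6e (0.0238), each low in mutant 1 alone. Ly6e, for example, had 122.2 and 222.3 FPKM in mutants 1 and 2, against 210.1 and 199.7 FPKM in controls 1 and 2. Nearest to Nkx3-2 were Zcchc3 (0.0140), Dennd4b (0.0140) and Arg1 (0.0256), each high in control 1 alone.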

How the data were processed

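RNA-seq of colon was analysed in 2 mutant and 2 control libraries. Tools listed in the submitters' processing notes are bcl2fastq 1.8.4, TopHat, Cufflinks and DESeq, with the build mm9. Per the file headers, the authors deposited FPKM with a 95% interval for 23699 gene rows and 30028 isoform rows per library. The isoform files hold the transcript coverage signal deposited by the authors, which was not used, and transcript lengths. The authors' deposited table of the series holds mean normalized counts per group (a signal), a mutant over control ratio, the log2 of that ratio and p-values.

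The 306 rows not marked OK throughout were left out, and rows of a symbol were summed. A count model was not run, since FPKM are not counts. The fit in limma 3.58.1 (R 4.3.3) used log2(FPKM + 0.5) of the 13997 genes whose mean reached 0.5 FPKM and of 5 members below it, a variance trend and Benjamini-Hochberg adjustment over all 14002 rows at 0.05. Fold changes on this scale understate the change of low genes. With 2 libraries a group, an exact permutation test cannot pass 0.05 and none is given. Fragment numbers are computed from interval widths, or from FPKM, length and depth. In genes with 1 isoform and up to 50 fragments, 88.8% to 89.8% of the numbers lay within 0.05 of a whole number. Coordinates are on mm9, written from 1, and exons and sequences come from GENCODE vM1 on that assembly. The fit was tested on simulated data.

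The 9 members and the lists around them were chosen with earlier results of these data known. Named are all members, passing genes and the 3 most abundant genes of each list around the members, Madcam1, and the 3 nearest profiles of Nkx2-2 and of each member over the minimum. Some items that this rule names are not reported here. Others are said to be named after their values were seen. Alternatives covered pseudocount, filter, scaling, variance trend, replicate term, each library left out, the authors' table, and, chosen after seeing the data, rows of any status.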

Additional observations from a re-analysis of the deposited data

How the results depend on the processing

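Across 85 alternative values of the 7 tested members, 83 kept their direction, 0 passed the threshold (smallest limma adjusted p = 0.313), and 2 turned: Nkx2-3 was 0.079 without mutant 1, and Nkx6-3 was −0.18 without control 1. The Nkx2-2 change ran from −1.26 with a pseudocount of 0.1 to −0.43 with a pseudocount of 1, and was −0.61 after median ratio rescaling. With each library left out in turn it ran from −0.90 to −0.45, Nkx2-3 from −0.72 to 0.079 and Nkx3-2 from −0.89 to −0.021, and Nkx6-3 from −0.18 to 0.27. Nkx2-1, Nkx6-1 and Nkx2-5 give no value without mutant 1, since all else is 0. Deviations of same-numbered libraries correlated at −0.00217 across 13997 genes. With 2 libraries a group this is a single correlation, so it cannot show whether the replicate numbers carry a pairing. With the replicate block Nkx2-2 was −0.68 (limma adjusted p = 0.774, unadjusted p = 0.0499) and Nkx2-3 −0.32 (limma adjusted p = 0.957). The unadjusted limma p of Nkx2-2 was lower with no variance trend (0.0202, adjusted 0.836) and with no filter (0.0332, adjusted 0.817). It was 0.0721 and 0.0666 with pseudocounts of 0.1 and 1, 0.0911 with a filter at 1 FPKM and 0.0939 after rescaling. Genes past the threshold numbered 9, against 3 with no filter, 3 after rescaling, 194 with the replicate block and 8 to 363 with a library left out (8 without mutant 1, 11 without mutant 2, 124 without control 1, 363 without control 2), and the cause was not tested. Of these, 0 were lower with no filter and after rescaling, and 108 with the replicate block, against 4 as deposited. Low depth limits Nkx2-2, with 1 fragment in mutant 1, and the members seen in mutant 1 alone or not at all.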
